A study of Mus musculus with 12 samples.

Results

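The shRNA hairpins against the phosphoribosyl pyrophosphate (PRPP) synthetase complex and ribokinase were followed through a pooled screen of mouse embryonic stem cells (mESCs). They were chosen by gene symbol, with earlier results of these data known. The symbols gave 22 of the 3243 hairpins and 5 of the 732 symbols in the count table. Prps1, Prps1l1, Prps2 and Prpsap2 had 5 hairpins each and Rbks had 2. Prpsap1, the other gene the symbol rule could have taken, was not analysed here. All cells were of the E14 line carrying a UHRF1-GFP transgene, whose fluorescence stands in for the amount of UHRF1, the protein that brings the maintenance DNA methyltransferase to newly copied DNA. All cells had also received the TRC lentiviral mouse kinase shRNA library in Serum/LIF and had been selected in puromycin. The 4 groups of 3 libraries each were Serum/LIF day 0 (unsorted, at the start), Serum/LIF day 7 (unsorted, kept in Serum/LIF) and the GFP- and GFP+ fractions sorted by FACS after 7 days in 2i. The 2i medium is serum-free and holds LIF, the MEK inhibitor PD0325901 and the GSK3 inhibitor CHIR99021. The question put to each hairpin was whether its share of the reads differed between cells that kept the transgene's fluorescence in 2i and cells that lost it.

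PRPP synthetases join ribose-5-phosphate and the pyrophosphate group of ATP into PRPP, the activated sugar used in purine, pyrimidine and NAD synthesis. Prps1 and Prps2 encode catalytic subunits, Prps1l1 encodes a close relative known in humans as a testis form, and Prpsap2 encodes an associated protein that lacks catalytic activity and binds the synthetases. Rbks, ribokinase, phosphorylates free ribose and so delivers the same ribose-5-phosphate that the pentose phosphate pathway supplies. The table counts hairpins in genomic DNA, so neither the knockdown of a target nor any marker of the cell type could be read from it.

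The 5 Prpsap2 hairpins are printed because their sequences show that they are not 5 separate reagents. Each is the 21-base antisense strand given in the study's supplement, read 5′ to 3′, and capitals mark the 20 bases that a hairpin shares with another hairpin of the gene.
TRCN0000075708: taacttctttcatttcagagg
TRCN0000075709: AATGTCATCCACAATGATGGc
TRCN0000075712: tAATGTCATCCACAATGATGG
TRCN0000075710: TTGCACATCATAGAAGCCAGc
TRCN0000075711: tTTGCACATCATAGAAGCCAG
TRCN0000075709 and TRCN0000075712 shared these 20 bases with a shift of 1 base, and so did TRCN0000075710 and TRCN0000075711. By their sequences the 5 hairpins were therefore taken as 3 target sites. They were compared with each other only and were not placed on the transcript. The content of G and C ran from 33.3% in TRCN0000075708 to 47.6% in TRCN0000075710. Prpsap2 lies on mouse chromosome 11. The count table names these hairpins by the numbers 2945 to 2949 and gives no clone. For the 4 genes with sequences in that supplement, the blocks of 5 clones and the blocks of 5 table numbers followed the same order from gene to gene. Read in that order, 2945 is TRCN0000075708, 2946 and 2949 are one overlapping pair, and 2947 and 2948 are the other, but the sources do not state the match within the gene. Sequences of the other member hairpins were not used here.

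Library totals ran from 2435551 to 5466825 counts. GFP+ replicate B stood apart from the rest. It had counts for 47.4% of all hairpins and 7 of the 22 members, against 57.6% and 58.8% of all hairpins and 13 and 11 members in GFP+ replicates A and C, and its Spearman correlation over hairpins with those replicates was 0.741 and 0.738, against 0.933 between A and C. From 16 to 20 members had counts in each of the other 9 libraries. The scaling factors that edgeR computed by TMM were 0.630 to 0.712 in the GFP+ libraries and 1.08 to 1.21 in the other libraries, so levels below are in CPM, counts scaled to each library's TMM-adjusted total. The replicates are labelled A to C. A figure legend of the paper calls them biological replicates, but nothing in the sources states separate infections. The p-values therefore speak only to the scatter of these 12 libraries, which may be technical. Reads were amplified by PCR without molecular identifiers, so intervals and floors cover counting error only. Where leaving out replicate B changed a call or moved a called fold by over 1.5 times, this is stated.

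In GFP+ cells against GFP- cells, 3 member hairpins were enriched, 3 were depleted and 9 were not called. DESeq2 called 4 and 4, and so did edgeR with all 12 libraries in 1 fit. The enriched ones were 2947 and 2948 against Prpsap2 and 2305 against Prps2. The depleted ones were 2945 against Prpsap2, 2301 against Prps2 and 1909 against Prps1l1. Of the 22 members, 15 had enough counts to be tested, which took 0.5 CPM or more in 3 or more of the 6 libraries. Among all 2600 hairpins tested, 8.58% were called enriched and 23.5% depleted. A call needed a log2 fold change beyond 1 in either direction together with an adjusted p (Benjamini-Hochberg, edgeR's quasi-likelihood test) under 0.05. Enriched hairpins made up 26.8% of the calls over all hairpins, and 14.7% when libraries were scaled by total counts alone. The median log2 fold change of the 15 tested members was -0.13, and that of all tested hairpins was -0.88. Hairpins 2945, 2301 and 1909 passed the filter through the GFP- libraries alone, so a difference in that direction followed from the filter. The main test called no Prps1 or Rbks hairpin, while DESeq2 and the fit of 12 libraries also called Rbks hairpin 3044 enriched and Prps1l1 hairpin 1907 depleted.

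Prpsap2 hairpin 2947 had 929, 683 and 616 counts in GFP- replicates A, B and C. In GFP+ replicates A, B and C it had 9088, 2811 and 10705 counts. Every GFP+ library lay above every GFP- library, including replicate B with its smaller total. Its level was 2371 ± 579 CPM (SD, n = 3) in GFP+ and 189 ± 32.4 CPM in GFP-, a log2 fold change of 3.65 (SE 0.31, adjusted p = 0.00202, edgeR's quasi-likelihood test). By this fold change it ranked 56th of the 2600 hairpins. Without GFP+ replicate B the log2 fold change was 3.83.

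Prpsap2 hairpin 2948 moved with it at a lower level. It had 145, 129 and 81 counts in GFP- replicates A to C and 2016, 598 and 2463 counts in GFP+ replicates A to C. The groups did not overlap, and replicate B was again the lowest of the GFP+ libraries. The level was 528 ± 146 CPM in GFP+ and 29.9 ± 5.93 CPM in GFP- (SD, n = 3), with a log2 fold change of 4.14 (SE 0.53, edgeR adjusted p = 0.00736), 40th of the 2600. Without GFP+ replicate B it was 4.35. The call was lost when the replicate letters A to C were fitted as blocks (4.12, edgeR adjusted p = 0.0882).

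If the table numbers follow the clone order, 2947 and 2948 are the pair printed above as TRCN0000075710 and TRCN0000075711, and their agreement is not that of separate target sites. The ratio of 2947 to 2948 counts stayed between 4.35 and 7.60 in all 12 libraries. The standard deviation of its log2 value was 0.24, the 6th smallest among the 1209 pairs of hairpins against the same gene that had counts in every library, where the median was 1.28. The overlapping pair of Sephs2, the selenophosphate synthetase gene whose sequences stand in the same supplement, had a standard deviation of 0.24 as well and the 9th place. Whether reads of a hairpin were counted for its overlapping partner was not tested. With overlapping hairpins summed, the site of 2947 and 2948 stood at 2903 ± 726 CPM in GFP+ and 219 ± 36.0 CPM in GFP- (SD, n = 3), with a log2 fold change of 3.73 (SE 0.30, edgeR adjusted p = 0.00169).

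The other presumed overlapping pair of Prpsap2, 2946 and 2949, was not called. Hairpin 2946 had 180, 187 and 362 counts in GFP- replicates A to C and 348, 0 and 292 counts in GFP+ replicates A to C. Hairpin 2949 had 0, 17 and 49 counts in GFP- and 28, 0 and 0 counts in GFP+. For both hairpins the groups overlapped, and both were at 0 in GFP+ replicate B. The log2 fold changes were -0.13 for 2946 (SE 1.69, edgeR adjusted p = 0.962) and -1.13 for 2949 (SE 2.24, edgeR adjusted p = 0.749). Their summed site gave -0.19 (SE 1.71, edgeR adjusted p = 0.944), so that a change of several fold was not detectable. The ratio of 2946 to 2949 ran from 6.89 to 48.3 in the libraries where both had counts, a wider range than that of the first pair.

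Hairpin 2945, in the presumed clone order the one Prpsap2 hairpin with no overlapping partner, was not counted in GFP+ cells. It had 58, 33 and 107 counts in GFP- replicates A to C and none in any GFP+ library. Against a floor of 3 counts in each GFP+ library this was at least 15.3-fold lower in GFP+ (edgeR's quasi-likelihood test, adjusted p = 0.0101), and at least 9.51-fold without GFP- replicate C. As it passed the filter through GFP- alone, it could not have been called enriched. At day 0 the counts of 2945 were 0, 0 and 237 in replicates A to C, and at day 7 they were 247, 344 and 382, so that the 3 day 0 libraries differed widely.

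Prps2 hairpin 2305 had the highest mean CPM of the members in GFP+ cells, carried by replicate B. In GFP+ replicates A and C, 2947 had more counts (9088 and 10705). Hairpin 2305 had 1035, 1440 and 939 counts in GFP- replicates A to C. In GFP+ replicates A to C it had 5518, 10479 and 6195 counts, all above the GFP- libraries and highest in replicate B, where 2947 and 2948 were lowest. The level was 3189 ± 2749 CPM in GFP+ and 289 ± 49.0 CPM in GFP- (SD, n = 3), a log2 fold change of 3.46 (SE 0.65, edgeR adjusted p = 0.00891) and the 69th place of 2600. Without GFP+ replicate B, which stood at 6833 CPM against 1852 and 1893 CPM in replicates A and C when all 12 libraries were scaled together, the log2 fold change was 2.46 (edgeR adjusted p = 0.000226).

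The 4 other Prps2 hairpins did not follow 2305. Hairpin 2301 had 47, 22 and 14 counts in GFP- replicates A to C and 1, 0 and 1 in GFP+. The level in GFP- was 31.7 times that in GFP+ (95% counting interval 8.49 to 266, edgeR adjusted p = 0.0101), with no overlap of the groups, and the call was lost with no filter on low counts (edgeR adjusted p = 0.0843). Hairpins 2302, 2303 and 2304 were too low to be tested. Hairpin 2302 was at 0 in all 6 libraries of the comparison, 2303 had 138 counts in GFP- replicate C and 21 in GFP+ replicate B and none elsewhere, and 2304 had 54, 0 and 42 counts in GFP- and none in GFP+, at least 7.29-fold lower against the floor. Enrichment of Prps2 in GFP+ cells therefore rested on a single hairpin of 5.

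Prps1l1 had the 2 most abundant member hairpins outside the GFP+ fraction and no enriched hairpin. Hairpin 1907 had 2306, 3406 and 2159 counts in GFP- replicates A to C and 892, 388 and 1459 in GFP+, without overlap, and a log2 fold change of -1.20 that missed the threshold (SE 0.37, edgeR adjusted p = 0.0528). Hairpin 1908 had 2353, 2363 and 1895 counts in GFP- and 826, 2109 and 1092 in GFP+, and a log2 fold change of 0.10 (SE 0.70, edgeR adjusted p = 0.934). Without GFP+ replicate B, the highest of the GFP+ libraries for 1908, that hairpin was called depleted at -1.11 (edgeR adjusted p = 0.00333). Hairpin 1907 lay close to the threshold. It was called depleted without replicate B (-1.07, edgeR adjusted p = 0.0133) or C (-1.43, edgeR adjusted p = 0.0489), with RLE or total-count scaling (edgeR adjusted p = 0.0356 and 0.0116), by DESeq2 (adjusted p = 5.98e-05) and with all 12 libraries in 1 fit (edgeR adjusted p = 0.00297).

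The other Prps1l1 hairpins were absent from GFP+ cells. Hairpin 1909 had 14, 198 and 58 counts in GFP- replicates A to C and none in GFP+, at least 19.5-fold lower (edgeR adjusted p = 0.0234). GFP- replicate B carried this bound, which was 8.74-fold without it. The call was lost without GFP- replicate B (edgeR adjusted p = 0.0506) and without GFP- replicate C (edgeR adjusted p = 0.0721). Hairpin 1910 had 1, 30 and 143 counts in GFP- replicates A to C and none in GFP+, at least 14.1-fold lower against the floor but at least 3.21-fold without GFP- replicate C. Hairpin 1906 had 0, 26 and 17 counts in GFP- and none in GFP+, at least 3.22-fold lower, or 2.13-fold without GFP- replicate B. Neither was tested.

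For Prps1, no hairpin had any count in GFP+ replicate B. Hairpin 1846 had 664, 832 and 422 counts in GFP- replicates A to C and 1103, 0 and 1896 in GFP+, with a log2 fold change of 0.75 (SE 1.76, edgeR adjusted p = 0.787). Without replicate B it was called enriched at 1.33 (edgeR adjusted p = 0.0156). Hairpin 1847 had 142, 421 and 224 counts in GFP- and 352, 0 and 381 in GFP+, so the groups overlapped, with a log2 fold change of 0.01 (edgeR adjusted p = 0.998). Hairpin 1844 had 144, 250 and 156 counts in GFP- and 63, 0 and 0 in GFP+, lower in every GFP+ library but not called (-2.92, SE 2.08, edgeR adjusted p = 0.347). Without GFP+ replicate A, its 1 GFP+ library with counts, it was called depleted (edgeR adjusted p = 0.0128). Leaving that library out put 1844 at 0 throughout GFP+, so the direction of this call was fixed in advance. Hairpins 1845 and 1848 were at 0 in all 6 libraries.

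The 2 Rbks hairpins had log2 fold changes of opposite sign, and the main test called neither. Hairpin 3044 had 34, 214 and 30 counts in GFP- replicates A to C and 489, 85 and 826 in GFP+. In CPM these made 22.7 ± 24.7 and 136 ± 81.2 (SD, n = 3), and a log2 fold change of 2.58 (SE 1.10, edgeR adjusted p = 0.134). GFP+ replicate B had fewer counts of 3044 than GFP- replicate B. In CPM the groups were separate with these 2 groups scaled alone. With all 12 libraries scaled together they overlapped, at 55.4 CPM in GFP+ replicate B and 59.2 CPM in GFP- replicate B. Hairpin 3046 had 302, 863 and 154 counts in GFP- and 93, 0 and 61 in GFP+, a log2 fold change of -2.91 (SE 1.67, edgeR adjusted p = 0.249). Hairpin 3044 was called enriched without GFP+ replicate B (2.97, edgeR adjusted p = 0.0359), by DESeq2 (2.44, adjusted p = 0.0321) and with all 12 libraries in 1 fit (2.57, edgeR adjusted p = 0.0297).

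Summed over the hairpins of a gene, Prpsap2 and Prps2 were enriched in GFP+ cells. Over 721 symbols tested in this way, 12.9% were called enriched and 12.6% depleted. Prpsap2 stood at 2839 ± 821 CPM in GFP+ and 322 ± 58.3 CPM in GFP- (SD, n = 3), with a log2 fold change of 3.14 (SE 0.31, edgeR adjusted p = 0.00137). Prps2 stood at 2984 ± 2470 and 332 ± 35.0 CPM, with 3.17 (SE 0.60, edgeR adjusted p = 0.0130). The Prps2 sum was at 2.22 without GFP+ replicate B (edgeR adjusted p = 1.64e-06). The Prps2 call was lost without GFP- replicate A, B or C (edgeR adjusted p = 0.0672, 0.0636 and 0.0623). These sums are carried by the abundant hairpins 2947 and 2305 and hide the depleted hairpins of the same genes. The sums of Prps1 (log2 fold change 0.22), Rbks (0.10) and Prps1l1 (-0.66) were not called, with edgeR adjusted p-values of 0.931, 0.943 and 0.287. Without GFP+ replicate B the Prps1l1 sum was called depleted at -1.24 (edgeR adjusted p = 0.000184).

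Loss of hairpins in the GFP+ fraction was about as frequent among the members as in the whole table. In GFP+, 8 members (36.4%) were at 0 in all 3 libraries, beside 33.0% of all hairpins. No member was at 0 throughout day 0, beside 2.90% of all hairpins, and 3 members (13.6%) were at 0 throughout day 7 and 3 throughout GFP-, beside 3.36% and 6.91%. The members' share of all counts was 0.355 ± 0.0128% at day 0, 0.395 ± 0.0198% at day 7, 0.296 ± 0.0372% in GFP- and 0.573 ± 0.0931% in GFP+ (SD, n = 3). As a description, since they were picked for their enrichment, the 3 enriched hairpins took 79.8%, 84.2% and 76.3% of the member counts in GFP+ replicates A, B and C and 9.50% to 25.1% in the other 9 libraries. Ranked by mean CPM among all 3243 hairpins, 2305 went from 801st in GFP- to 85th in GFP+, 2947 from 1064th to 128th and 2948 from 2247th to 533rd.

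The same GFP+ libraries were next set against Serum/LIF cells. As the GFP+ libraries are shared, these comparisons are not separate evidence for the hairpins already described. Against Serum/LIF day 7, 4 of 19 tested members were enriched, where 9.81% of 2906 hairpins were, and 6 were depleted, where 31.9% were. The median log2 fold change was -1.44 over the tested members and -1.42 over all tested hairpins. Against Serum/LIF day 0, 3 of 15 tested members were enriched, where 10.2% of 2670 hairpins were, and 3 were depleted, where 25.0% were, with medians of -1.47 and -1.23.

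Hairpin 2947 had 1698, 2036 and 1664 counts at day 7 and 731, 1128 and 743 at day 0, in replicates A to C. Its log2 fold changes in GFP+ were 3.11 against day 7 (SE 0.28, edgeR adjusted p = 0.00302) and 3.96 against day 0 (SE 0.34, edgeR adjusted p = 0.00161), beside the 3.65 against GFP-. All 9 libraries of the other groups lay below the GFP+ libraries in CPM. Hairpin 2948 had 288, 428 and 343 counts at day 7 and 137, 242 and 136 at day 0. Its log2 fold changes were 3.30 (SE 0.44, edgeR adjusted p = 0.00311) and 4.13 (SE 0.57, edgeR adjusted p = 0.00629). The pair thus stood above all of the other groups and not above GFP- alone.

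For Prps2, hairpin 2305 had 1457, 1980 and 1936 counts at day 7 and 575, 1219 and 893 at day 0. Its log2 fold changes in GFP+ were 3.54 against day 7 (SE 0.65, edgeR adjusted p = 0.00632) and 4.33 against day 0 (SE 0.72, edgeR adjusted p = 0.00629), with no overlap. They were 2.55 (edgeR adjusted p = 6.48e-05) and 3.37 (edgeR adjusted p = 0.000881) without GFP+ replicate B. Hairpin 2301 had 67, 73 and 35 counts at day 7 and 90, 0 and 80 at day 0. Its day 7 level was 39.6 times that in GFP+ (95% counting interval 10.8 to 329, edgeR adjusted p = 0.00372). Hairpin 2304 had 7, 90 and 7 counts at day 7 and 177, 78 and 100 at day 0. It was at least 18.2-fold lower in GFP+ than at day 0 (edgeR adjusted p = 0.00636).

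The hairpins depleted in GFP+ against Serum/LIF include those of Prps1l1. All of them but 1907 were at or near 0 in every GFP+ library and passed the filter through Serum/LIF alone, so they could have been called in no other direction. Hairpin 1907 had 5300, 5910 and 7342 counts at day 7 and 4097, 6024 and 3625 at day 0. It was depleted against both, at -1.68 (SE 0.30, edgeR adjusted p = 0.00564) and -1.47 (SE 0.38, edgeR adjusted p = 0.0239). The call against day 0 was lost without GFP+ replicate A or any 1 day 0 replicate (edgeR adjusted p = 0.0726 to 0.111). Hairpin 1909 had 36, 226 and 108 counts at day 7 and 264, 95 and 77 at day 0, and was at least 16.0-fold and at least 22.1-fold lower in GFP+ (edgeR adjusted p = 0.0106 and 0.00773), or 9.17-fold without day 7 replicate B and 13.3-fold without day 0 replicate A. Hairpin 1910 had 278, 196 and 208 counts at day 7 but 134, 0 and 0 at day 0, and was at least 30.5-fold lower in GFP+ than at day 7 (edgeR adjusted p = 0.00311). Prpsap2 hairpin 2945 was at least 42.5-fold lower than at day 7 (edgeR adjusted p = 0.00311). Prps1 hairpin 1845 had 13, 9 and 9 counts at day 7 and 0, 0 and 5 at day 0. It was at least 1.39-fold lower in GFP+ than at day 7 (edgeR adjusted p = 0.0106), and was at 0 throughout GFP- too. Its call was lost with no filter on low counts (edgeR adjusted p = 0.0703) and with all 12 libraries in 1 fit (edgeR adjusted p = 0.0984).

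Rbks hairpin 3044 was enriched in GFP+ against day 7 and not against day 0. It had 101, 223 and 203 counts at day 7 and 907, 519 and 418 at day 0, so the day 7 libraries were the low ones of Serum/LIF. The log2 fold changes were 2.37 against day 7 (SE 0.73, edgeR adjusted p = 0.0448) and 0.33 against day 0 (SE 0.79, edgeR adjusted p = 0.776). The first call was lost without GFP+ replicate A or C and without any single day 7 replicate, with edgeR adjusted p-values from 0.0900 to 0.174, and with total-count scaling (1.64, edgeR adjusted p = 0.133).

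From day 0 to day 7 in Serum/LIF, Prpsap2 hairpin 2946 and Rbks hairpin 3044 were depleted. None of the 19 tested members was enriched, where 3.43% of 3028 hairpins were, and these 2 were depleted, where 4.00% were. The edgeR exact test and DESeq2 also called none enriched. An unadjusted p under 0.05 was found for 6 of the 19 (31.6%), beside 29.0% of all hairpins. Prpsap2 hairpin 2946 had 1363, 1633 and 760 counts at day 0 and 278, 193 and 147 at day 7, without overlap, a fall from 288 ± 79.5 to 44.6 ± 18.9 CPM (SD, n = 3) and a log2 fold change of -2.69 (SE 0.42, edgeR adjusted p = 0.00660). Its presumed overlapping partner 2949 had 131, 237 and 65 counts at day 0 and 15, 4 and 4 at day 7, also without overlap, with -4.25 (SE 1.36, edgeR adjusted p = 0.0753). The edgeR exact test and DESeq2 called 2949 depleted as well (adjusted p = 0.0344 and 0.00172). Rbks hairpin 3044 went from 142 ± 50.0 to 36.4 ± 11.8 CPM, with -1.96 (SE 0.50, edgeR adjusted p = 0.0383), a call lost without day 0 replicate A or any 1 day 7 replicate (edgeR adjusted p = 0.0876 to 0.137).

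Hairpins 2947 of Prpsap2 and 1908 of Prps1l1 passed the p threshold from day 0 to day 7 but not the fold limit. The first had a log2 fold change of 0.91 (SE 0.25, edgeR adjusted p = 0.0480). Hairpin 1908 had 3722, 3539 and 2758 counts at day 0 and 5447, 5947 and 6453 at day 7, with 0.68 (SE 0.11, edgeR adjusted p = 0.00677). Hairpins 1848 and 2302, each counted in a single day 0 library with 204 and 6 counts, were at 0 everywhere later. Hairpin 1906 had 106 and 152 counts in day 0 replicates B and C, none at day 7, and 26 and 17 counts in GFP- replicates B and C.

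No member was called between GFP- cells and Serum/LIF day 7 cells, which is close to the background. Of 19 tested, 0 were enriched, where 4.16% of 2981 hairpins were, and 0 were depleted, where 4.83% were. An unadjusted p under 0.05 was found for 5 members (26.3%), beside 29.4% of all hairpins, and 2 had an adjusted p under 0.05 in edgeR's quasi-likelihood test. DESeq2 called 0 as well, and the edgeR exact test called 1, Prps1 hairpin 1845. Hairpins 1908 and 1907 were lower in every GFP- library than in every day 7 library, at log2 fold changes of -0.69 (SE 0.10, edgeR adjusted p = 0.00177) and -0.49 (SE 0.14, edgeR adjusted p = 0.0413), both within the fold limit. Hairpin 2305 did not separate the groups (0.09, SE 0.18, edgeR adjusted p = 0.814).

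Other kinases that handle nucleotides and sugars give the surroundings of these genes in the table. From 3 lists with 31 genes and 128 hairpins, 113 were tested in GFP+ against GFP- cells, of which 10 were enriched, 22 depleted and 81 not called, beside 8.58% and 23.5% of all hairpins. Nucleoside and nucleotide kinases had 2 enriched and 12 depleted of 42 tested (median log2 fold change -1.58). Nucleoside diphosphate and adenylate kinases had 6 enriched and 7 depleted of 39 (median -0.57), and pentose and hexose kinases had 2 enriched and 3 depleted of 32 (median -0.74). Hairpin 2181 against Nme3, a nucleoside diphosphate kinase, reached a log2 fold change of 3.94 (SE 0.31, edgeR adjusted p = 0.00148). Hairpin 1903 against Guk1, guanylate kinase, fell by 2.87 on the log2 scale (SE 0.46, edgeR adjusted p = 0.00736).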

How the data were processed

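Hairpins integrated in genomic DNA were amplified by PCR and sequenced, and the authors aligned reads with Bowtie2 and counted them per hairpin. The deposited values are raw counts with no normalization, in 1 table of 12 libraries. Versions of these tools and the reference of hairpins were not given in the sources used here. No column was left out. The 5 symbols were all matched to mouse genes in a GRCm38.p6 gene table.

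Each of 5 comparisons was fitted alone over all hairpins with edgeR 4.0.16 in R 4.3.3 (at least 0.5 CPM in at least 3 libraries, TMM scaling, quasi-likelihood test). Calls needed a log2 fold change beyond 1 in either direction and an adjusted p (Benjamini-Hochberg) under 0.05. Standard errors are the fold change divided by the square root of F. A hairpin at 0 throughout a group was bounded with a floor of 3 counts per library. The fit was tested on simulated data. Alternatives were RLE and total-count scaling, no filter, the edgeR exact test, DESeq2 1.42.0, all libraries in 1 fit, a replicate block, each replicate left out and, chosen after seeing the data, overlapping Prpsap2 hairpins summed and fold bounds without each library. Every member is accounted for, with values in every library for all Prpsap2 hairpins and members called in any comparison. The members and lists were chosen with earlier results of these data known.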

Additional observations from a re-analysis of the deposited data

How the results depend on the processing

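No called hairpin changed direction under any alternative run, which those at 0 throughout GFP+ could not have done. The 24 calls of single hairpins were each checked under 13 or 14 alternative fits, which the calls of a comparison share. Of these 317 checks, 279 passed the thresholds and 38 did not. Hairpins 2947 and 2305 passed in GFP+ against GFP- under all 14 alternatives (largest edgeR adjusted p = 0.0276 and 0.0491), and 2948 under 12 of 13. The paper describes 2i cultures in triplicate that were then sorted, but no source states whether the letters A to C pair the libraries. Same-letter deviations correlated between -0.05 and 0.03 over 15 pairs. With 3 libraries per group and wide scatter in GFP+, this does not exclude a pairing. The replicate block lost 17 of the 24 calls. It left 2 enriched and 0 depleted members in GFP+ against GFP-, beside 66 enriched and 1 depleted of all hairpins. GFP+ against day 7 and against day 0 likewise kept 2 enriched and 0 depleted members. From day 0 to day 7, 1 depleted member was left. Hairpin 2948 lost its enriched call against GFP-, day 7 and day 0 (edgeR adjusted p = 0.0882, 0.102 and 0.0868). All 12 libraries in 1 fit left 0 depleted from day 0 to day 7, and the edgeR exact test gave 1 depleted in GFP- against day 7.

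With each replicate left out in turn, 3 to 5 members were enriched and 2 to 5 depleted in GFP+ against GFP-, 3 to 6 and 6 to 9 against day 7, and 3 to 4 and 2 to 5 against day 0. From day 0 to day 7 these were 0 to 1 enriched and 1 to 2 depleted, and in GFP- against day 7 there were 0 to 1 depleted. Gene sums gave 1 to 3 calls. The highest counts of calls in the GFP+ comparisons came without GFP+ replicate B, where hairpins 3044 and 1846 were enriched and 1907 and 1908 depleted against GFP-, where 1846 and 2946 were also enriched and 1908, 2303 and 3046 also depleted against day 7, and where 1846 was also enriched and 1908 and 2303 depleted against day 0. From day 0 to day 7, 1910, 2947 or 2945 became enriched without day 0 replicate A, B or C. Without GFP- replicate C, 2303 became depleted in GFP- against day 7. For 1910 and 2945, the library left out was the only day 0 library with counts (134 and 237). The same held for 2303 in GFP+ (21 counts in replicate B) and in GFP- (138 counts in replicate C). Leaving that library out fixed the direction of these calls of 1910, 2945 and 2303 in advance. Hairpin 2947 had counts in every day 0 library, with a log2 fold change of 1.08 without replicate B (edgeR adjusted p = 0.0291).

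Total-count scaling took the median over all hairpins (log2) from -0.88 to -1.61 in GFP+ against GFP-, from -1.42 to -2.17 against day 7 and from -1.23 to -2.03 against day 0. With this scaling, 2947, 2948 and 2305 had log2 fold changes of 2.94, 3.44 and 2.63 against GFP- and stayed enriched. Depleted members in that comparison then numbered 4. The enriched share of calls went from 23.5% to 13.4% against day 7, from 28.9% to 14.6% against day 0 and from 46.2% to 31.1% from day 0 to day 7. Depth limits the hairpins with few counts most, since one at 0 in GFP+ has only a bound.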
